A study of Homo sapiens with 2 samples.

Results

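The 40 genes described here encode the machinery of ER-associated degradation (ERAD). They were taken by symbol from a list of known ERAD components, which was drawn up with earlier results of these data known and holds 5 genes that the study listed as raised. All 40 were present as protein-coding genes among the 19951 protein-coding genes and 58735 genes of the deposited table. They were divided by role into 8 genes for mannose trimming and glycan recognition, 18 genes for ubiquitin ligases, their conjugating enzymes and adaptors, and 14 genes for extraction from the membrane and handling in the cytosol. RNA came from the human GBM line SF-539, grown in DMEM with serum and infected with pGIPZ lentivirus. The virus carried either a control hairpin (shControl) or a hairpin that targets FKBP9 (shFKBP9). Both populations therefore carried a vector and had been selected with puromycin as stable lines, and how many clones entered each was not stated. The question of the comparison was whether FKBP9, a prolyl isomerase of the ER, affects ER function. There was 1 library per condition, so no difference below has a replicate check, and a difference between the libraries and an effect of the knockdown cannot be told apart.

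Fragments could be recovered from the FPKM (fragments per kilobase of gene, scaled to the depth of the library), and 18116873 fragments lay on genes in shControl and 17158514 in shFKBP9. FKBP9, the target of the shRNA, had 49.8 FPKM in shControl and 4.68 FPKM in shFKBP9. Of 7 glial and glioma markers, 3 reached 1 FPKM in each library (VIM, CD44 and NES), whereas GFAP, OLIG2, SOX2 and S100B stayed below it. Of 4 epithelial markers only KRT8 reached 1 FPKM, although the labels call the cells epithelial. Of 7 markers of blood, keratinocytes and endothelium, 0 reached 1 FPKM in either library, with a summed level of 0.177 FPKM in shControl and 2.48 FPKM in shFKBP9, and PTPRC and CD3E had 0 fragments in both. Most of that difference lay in IGHG1 (0 and 33 fragments), IGKC (0 and 8) and KRT14 (1 and 24), and its part in the results below was not tested.

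ERAD removes proteins that fail to fold in the ER. Mannosidases trim the N-glycan of a misfolded glycoprotein, lectins read the trimmed glycan, and a membrane ligase complex around SYVN1 (also called HRD1) and SEL1L moves the protein across the membrane and attaches ubiquitin. The ATPase VCP (p97) then pulls the protein into the cytosol, where N-glycanase removes the sugars and the proteasome degrades the chain. When unfolded proteins accumulate, the unfolded protein response (UPR) raises transcription of many of these genes through XBP1 and ATF6, which bind the ER stress elements ERSE and ERSE-II and the UPR element UPRE.

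These elements were looked for, on both strands, in RefSeq promoter windows of GRCh38.p14 that run from 250 bases before to 50 bases after a gene's start. Windows were held for 29 members (32 windows, since BAG6, NGLY1 and NPLOC4 had a pair each). No window was held for DERL1, DERL3, ERLIN1, ERLIN2, GET4, MAN1A2, RNF139, RNF185, STUB1, TRIM13 and UBXN8. ERSE (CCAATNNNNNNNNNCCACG) was in 0 windows of members and in 0.0769% of all 35116 windows. ERSE-II (ATTGG, any base, CCACG) was in the window of HERPUD1 alone among the members and in 0.0541% of all windows. UPRE (TGACGTGG) was in the windows of UBE2J1 and VCP and in 0.729% of all windows. The search allowed no mismatch, and a match is a match of letters and does not show binding. The window of HERPUD1 also holds ccaatgggcggcagccaca, which differs from ERSE in its last base alone and was not counted. The 3 windows are shown because the ratios of the genes that carry the elements, given further on, differed in sign and size. The match is in capitals, and each window is written in the direction of its gene.
HERPUD1, chr16:56931892-56932191, plus strand, ERSE-II: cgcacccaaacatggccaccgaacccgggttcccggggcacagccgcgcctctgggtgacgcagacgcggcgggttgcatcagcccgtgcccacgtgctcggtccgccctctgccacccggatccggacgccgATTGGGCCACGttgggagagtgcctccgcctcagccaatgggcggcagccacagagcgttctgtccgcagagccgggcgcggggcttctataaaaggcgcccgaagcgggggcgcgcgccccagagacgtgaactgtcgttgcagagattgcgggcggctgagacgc
UBE2J1, chr6:89352673-89352972, minus strand, UPRE read on the opposite strand: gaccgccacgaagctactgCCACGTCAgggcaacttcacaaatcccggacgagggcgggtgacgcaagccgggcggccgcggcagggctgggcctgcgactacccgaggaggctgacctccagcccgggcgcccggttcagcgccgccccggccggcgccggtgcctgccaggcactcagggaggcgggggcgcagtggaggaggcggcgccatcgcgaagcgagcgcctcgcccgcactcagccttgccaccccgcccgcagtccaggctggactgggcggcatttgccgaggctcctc
VCP, chr9:35072576-35072875, minus strand, UPRE: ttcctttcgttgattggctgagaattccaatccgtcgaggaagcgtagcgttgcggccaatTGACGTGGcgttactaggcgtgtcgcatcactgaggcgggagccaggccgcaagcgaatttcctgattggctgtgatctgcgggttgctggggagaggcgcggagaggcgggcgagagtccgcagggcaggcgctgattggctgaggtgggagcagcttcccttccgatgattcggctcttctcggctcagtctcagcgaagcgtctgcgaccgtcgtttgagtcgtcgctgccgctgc
The ERSE-II of HERPUD1 lay 117 to 107 bases before the start, the UPRE of UBE2J1 231 to 224 bases before it and that of VCP 189 to 182 bases before it. These starts are those of RefSeq and differ from the gene bounds in the deposited table. By those bounds the window of VCP lies inside the gene, whereas the matches of HERPUD1 and UBE2J1 lie outside theirs.

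ERAD genes were expressed at very different levels. In shControl 27 of the 40 genes reached 10 FPKM, and in shFKBP9 the number was also 27. The summed level of the 40 genes was 775 FPKM in shControl and 756 FPKM in shFKBP9. VCP was the most abundant gene with 107 FPKM in shControl and 96.8 FPKM in shFKBP9. It was followed by RNF5, a small membrane-anchored ligase, with 72.1 and 66.4 FPKM, and by BAG6, a chaperone that holds extracted hydrophobic proteins, with 54.9 and 45.0 FPKM. AUP1, which recruits the conjugating enzyme UBE2G2, had 47.1 and 44.8 FPKM. At the low end, FBXO2 and FBXO6, F-box proteins that bind high-mannose glycans, had 0.760 and 0.884 FPKM in shControl, and the ligase TRIM13 had 0.827 FPKM. DERL3, the third Derlin, had 4 fragments in shControl but 2 in shFKBP9. It was left out of the counts of ratios because it had fewer than 10 fragments in the libraries together. The order of the 40 genes by FPKM was nearly the same in the libraries, and no gene moved by more than 4 places.

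No ERAD gene differed by 2-fold between the libraries. Ratios were computed as log2 of FPKM in shFKBP9 over FPKM in shControl with 0.1 added to both, which understates changes of genes at low FPKM. Among the 39 genes with at least 10 fragments, 0 passed 2-fold, against 0.897% of the 13040 protein-coding genes with as many fragments. Of the 39, 34 had at least 500 fragments, and at that depth only 6 of 8335 protein-coding genes passed 2-fold. A count of 0 thus does not set the members apart. The log2 ratios ran from -0.29 for BAG6 to 0.35 for FBXO6, and for 30 of the 39 genes the value with 0.1 added differed by less than 10%. The median log2 ratio was 0.01, with 21 genes above 0 and 18 below, and that of protein-coding genes was -0.02.

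The recovered fragments were compared by a two-sided exact binomial test, adjusted after Benjamini and Hochberg over 17105 genes of any kind. It called 5 members higher in shFKBP9 (UBXN4, UBE2J1, ERLEC1, EDEM1 and SEL1L) and 4 lower (BAG6, SYVN1, VCP and NPLOC4) at an adjusted p under 0.05. This test compares the libraries and not the conditions, since it and the 95% intervals given below cover counting error only. The shares were 12.8% and 10.3% of the 39 members, against 12.2% of protein-coding genes called higher and 14.7% called lower. Abundant genes are called more readily. Of the 34 members with at least 500 fragments, 14.7% were called higher and 11.8% lower, and of the 8335 protein-coding genes with as many fragments 16.7% were called higher and 20.3% lower. The members were thus not called more often than other genes of like depth in either direction. If replicates of each condition were assumed to vary with a coefficient of variation of 10%, a log2 ratio would have to pass 0.40 before counting error was added. By a 95% interval of that kind, without adjustment over genes, 0 members would be called. Of protein-coding genes, 13040 of which had at least 10 fragments, 327 would be called higher and 347 lower. Few members would thus be called at the rate of other genes.

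The direction of the ratios followed the base composition of the transcripts. Over the 8331 protein-coding genes with at least 500 fragments and a known GC content of the canonical transcript, the log2 ratio fell with GC content (Pearson r = -0.43, Spearman rho = -0.49). The points are genes of the same 2 libraries, share their depth and are not independent. The median log2 ratio was 0.15 in the lowest of 20 GC bins (GC up to 36.9%) and -0.13 in the highest (GC from 64.4%). Over the 34 ERAD genes with as many fragments the values were r = -0.69 and rho = -0.71. Of the 21 members below the median GC of protein-coding genes (48.4%), 17 had a ratio above 0 (81.0%), 5 were called higher (23.8%) and 0 lower. Of protein-coding genes in that range of GC, 63.0% had a ratio above 0, 18.3% were called higher and 5.80% lower. Of the 18 members above it, 14 had a ratio below 0 (77.8%), 0 were called higher and 4 lower (22.2%). Protein-coding genes in that range had a ratio below 0 in 69.4% of cases, with 6.10% called higher and 23.6% lower. All 9 called members lay on the side of 0 on which the median of their GC bin lay, as did 29 of the 39 members tested. For EDEM1 that median was only 0.009. The share among called protein-coding genes is not given here.

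The test was therefore repeated with the median ratio of a gene's GC bin as the expected ratio, an alternative chosen after this relation was seen. Of the 9 called members, 5 were called again in the same direction: UBXN4, ERLEC1 and EDEM1 higher and BAG6 and VCP lower. UBE2J1, SEL1L, SYVN1 and NPLOC4 were no longer called. OS9 and UBXN6 were called higher in this setting alone. That made 5 higher and 2 lower among the 39 members, against 11.6% of 13011 protein-coding genes called higher and 9.45% called lower. The GC-centred ratio of each called member is given with its values below.

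Of the 8 genes for mannose trimming and glycan recognition, 2 were higher in shFKBP9, 0 were lower and 6 did not pass the test, with a median log2 ratio of 0.03. All 8 had at least 500 fragments, and the 25.0% called higher stand against 16.7% of protein-coding genes at that depth and rest on 2 genes that the study had listed. ERLEC1 (XTP3-B), an ER lectin that reads trimmed glycans, lies on chromosome 2 from 53787044 to 53818819 (hg38) and has 14 exons. It had 24.7 FPKM in shControl from 1158 fragments and 29.0 FPKM in shFKBP9 from 1292 fragments. This gave ERLEC1 a log2 ratio of 0.23 (95% interval 0.12 to 0.35, adjusted p = 0.000595 in the exact binomial test). The transcript has a GC content of 41.5%, and with the GC bin median subtracted the ratio was 0.16 (0.05 to 0.28). EDEM1, which removes mannose from misfolded glycoproteins (chromosome 3, 5187646 to 5219957, 12 exons), had 13.7 FPKM from 1674 fragments and 15.2 FPKM from 1758 fragments. Its log2 ratio was 0.15 (0.05 to 0.24, adjusted p = 0.0167 in the exact binomial test) and, at a GC content of 45.1%, 0.14 (0.04 to 0.24) after centring. Both genes, together with EDEM3, are among those that the study listed as raised on these libraries, so their direction is not independent evidence.

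The other lectin, OS9, had 30.1 FPKM in shControl and 31.1 FPKM in shFKBP9, with a log2 ratio of 0.04 (-0.03 to 0.12). Its transcript is richer in GC (54.6%), and the centred ratio was 0.13 (0.05 to 0.21, adjusted p = 0.00615 in the exact binomial test with the GC bin median as the expected ratio). Exons of other genes, mostly of AGAP2-AS1, cover 23.9% of the exonic bases of OS9, and the library kit is not described as keeping the strand. EDEM3, a mannosidase of the same family as EDEM1, had 4.71 and 5.10 FPKM (log2 ratio 0.11, -0.04 to 0.27), and -0.01 (-0.17 to 0.15) after centring. EDEM2, which starts the trimming, had 35.9 and 33.9 FPKM (-0.08, -0.20 to 0.04). The ER mannosidase MAN1B1 had 24.7 and 24.1 FPKM (-0.04, -0.10 to 0.03). The Golgi mannosidases MAN1A1, with 16.3 and 16.2 FPKM, and MAN1A2, with 9.67 and 9.71 FPKM, had log2 ratios of -0.01 and 0.01. Their intervals as deposited lay between -0.11 and 0.11. After centring MAN1A2, at a GC content of 37.3%, stood at -0.12 (-0.22 to -0.02) and was not called (adjusted p = 0.0707 in the exact test).

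Of the 18 genes for ubiquitin ligases, conjugating enzymes and adaptors, 2 were higher in shFKBP9, 1 was lower and 15 did not pass the test, with a median log2 ratio of 0.01. The shares of 11.1% and 5.56% compare with 12.2% and 14.7% of protein-coding genes. Among the 15 with at least 500 fragments 13.3% were higher and 6.67% lower, against 16.7% and 20.3%. The 2 core subunits of the HRD1 complex went in opposite directions. SEL1L, the adaptor that links glycan lectins to the ligase (chromosome 14, 81471549 to 81533861, 21 exons), had 23.8 FPKM from 4127 fragments in shControl and 25.7 FPKM from 4225 fragments in shFKBP9. The log2 ratio was 0.11 (0.05 to 0.17, adjusted p = 0.00361 in the exact binomial test), and after GC centring (GC 39.3%) it was -0.02 (-0.08 to 0.05). The study listed SEL1L, too, as raised, and also reported its rise by quantitative PCR, a measurement separate from these libraries. SYVN1, the ligase itself (chromosome 11, 65121780 to 65134533, 16 exons), had 13.0 FPKM from 1289 fragments and 11.1 FPKM from 1044 fragments, a log2 ratio of -0.23 (-0.35 to -0.11, adjusted p = 0.00138 in the exact binomial test). With its GC content of 58.5% taken into account the ratio was -0.12 (-0.24 to 0.00, adjusted p = 0.165 in the same exact test). Exons of other genes, mostly of MRPL49, cover 9.99% of the exonic bases of SYVN1.

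UBE2J1, the conjugating enzyme that works with SYVN1 in the ER membrane (chromosome 6, 89326625 to 89352848, 8 exons), had 15.8 FPKM from 1231 fragments in shControl and 18.8 FPKM from 1383 fragments in shFKBP9. The log2 ratio was 0.24 (0.13 to 0.36, adjusted p = 0.000185 in the exact binomial test). At a GC content of 38.9% the centred ratio was 0.12 (0.01 to 0.23, adjusted p = 0.129 in the same exact test). The other conjugating enzymes, UBE2J2 with 15.5 and 15.1 FPKM and UBE2G2 with 12.1 and 11.8 FPKM, had log2 ratios of -0.04 and -0.03.

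HERPUD1, a partner of the HRD1 complex that is among the genes most strongly induced by ER stress, had 16.2 FPKM from 1513 fragments in shControl and 16.7 FPKM from 1482 fragments in shFKBP9. Its log2 ratio was 0.05 (-0.06 to 0.15). An increase of HERPUD1 by more than about 0.15 on the log2 scale lay outside the counting error of these libraries. Its paralog HERPUD2 had 8.46 and 8.52 FPKM (0.01, -0.17 to 0.20). FAM8A1, a further cofactor of SYVN1, had 2.98 FPKM from 252 fragments and 3.64 FPKM from 292 fragments. Its log2 ratio of 0.28 (0.04 to 0.54) did not pass the test after adjustment (adjusted p = 0.0819 in the exact binomial test).

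None of the ligases outside the HRD1 complex was called. RNF5 had a log2 ratio of -0.12 (-0.22 to -0.01, adjusted p = 0.107 in the exact binomial test), and of -0.03 (-0.14 to 0.07) after GC centring. RNF185, a relative of RNF5, had 14.2 and 13.6 FPKM (-0.06). RNF139 (TRC8) had 9.23 and 8.95 FPKM (-0.04), and STUB1 (CHIP), a cytosolic ligase that works with chaperones, had 23.8 and 23.3 FPKM (-0.03). AUP1 stood at -0.07 (-0.16 to 0.02). ERLIN1 and ERLIN2, which form a scaffold for the degradation of activated IP3 receptors, had 22.3 and 23.3 FPKM (0.06) and 11.2 and 11.3 FPKM (0.02). At the low end, counting error was wide. FBXO6, which the study listed as raised, had 29 fragments in shControl and 36 in shFKBP9, a log2 ratio of 0.35 with an interval from -0.36 to 1.15. FBXO2 had 47 and 45 fragments (0.01, -0.61 to 0.64) and TRIM13 121 and 121 fragments (0.07, -0.30 to 0.45). Differences smaller than these intervals were not detectable at this depth.

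Of the 13 genes tested for extraction and handling in the cytosol, 1 was higher in shFKBP9, 3 were lower and 9 did not pass the test, with a median log2 ratio of -0.00. The shares were 7.69% and 23.1%, against 12.2% and 14.7% of protein-coding genes. Among the 11 of these genes with at least 500 fragments 27.3% were lower, against 20.3% of protein-coding genes. VCP (chromosome 9, 35056064 to 35073249, 17 exons) had 10572 fragments in shControl and 9037 in shFKBP9. The log2 ratio was -0.15 (-0.19 to -0.11, adjusted p = 1.91e-11 in the exact binomial test). With the deepest coverage of all members it also had the narrowest interval, and the GC-centred ratio (GC 51.4%) was -0.08 (-0.12 to -0.04). NPLOC4, which together with UFD1 recruits VCP to ubiquitinated proteins (chromosome 17, 81556887 to 81648465, 17 exons), had 23.5 FPKM from 4078 fragments and 22.0 FPKM from 3618 fragments. Its log2 ratio of -0.10 (-0.16 to -0.03, adjusted p = 0.0207 in the exact binomial test) became -0.01 (-0.07 to 0.06) after centring, at a GC content of 56.4%.

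UBXN4 (erasin), a membrane protein that tethers VCP to the ER, showed the largest increase among the members called (chromosome 2, 135741619 to 135785055, 13 exons). It had 15.1 FPKM from 1395 fragments in shControl and 18.6 FPKM from 1636 fragments in shFKBP9. The log2 ratio was 0.30 (0.20 to 0.41, adjusted p = 1.28e-07 in the exact binomial test), and after GC centring (GC 38.6%) it was 0.18 (0.08 to 0.29). The differences from other VCP adaptors of the UBX family were not tested. UBXN6 had 30.5 FPKM in each library (log2 ratio -0.00, -0.08 to 0.08) and, with a GC content of 63.7%, a centred ratio of 0.12 (0.04 to 0.19, adjusted p = 0.0153 in the exact test against the GC bin median). FAF2 (UBXD8) had 15.7 and 15.3 FPKM (-0.04), and UBXN8 had 2.71 and 2.57 FPKM (-0.07, -0.41 to 0.26).

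BAG6 showed the largest decrease of the 39 genes. It lies in the MHC region of chromosome 6 (31639028 to 31652705, 26 exons) and had 5277 fragments in shControl and 4099 in shFKBP9. The log2 ratio was -0.29 (-0.35 to -0.23, adjusted p = 6.37e-20 in the exact binomial test), with a GC content of 60.1%, and -0.18 (-0.24 to -0.12) after centring. UBL4A, which binds BAG6, had 26.2 and 23.8 FPKM and a ratio in the same direction that did not pass the test (-0.14, -0.26 to -0.02, adjusted p = 0.0839 in the exact binomial test). After centring the ratio of UBL4A was -0.04 (-0.16 to 0.08). GET4, the remaining subunit of this complex, had 104 and 118 fragments (0.24, -0.13 to 0.65), and exons of other genes cover 80.8% of its exonic bases.

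The Derlins are membrane proteins of the extraction channel, and none was called. DERL1 had 11.5 FPKM in shControl and 11.8 FPKM in shFKBP9 (log2 ratio 0.04, -0.06 to 0.15). DERL2 had 10.5 and 11.6 FPKM (0.14, 0.02 to 0.25, adjusted p = 0.0734 in the exact binomial test). After GC centring, at a GC content of 39.1%, its ratio was 0.01 (-0.10 to 0.13). For DERL3 exons of other genes, mostly of SMARCB1, cover 77.0% of the exonic bases, and no ratio is given. The rhomboid protease RHBDD1 had 3.14 and 3.23 FPKM (0.04), and NGLY1, the N-glycanase, had 3.48 and 3.71 FPKM (0.09).

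Members widely described as induced by the UPR were set beside the rest. Of these 12 genes (SYVN1, SEL1L, HERPUD1, the 3 Derlins, the 3 EDEM genes, OS9, ERLEC1 and UBE2J1), 11 had enough fragments, 9 of them had a ratio above 0, and 4 were called higher (36.4%) and 1 lower (9.09%). All 11 had at least 500 fragments, and of the protein-coding genes at that depth 16.7% were called higher and 20.3% lower. Their median log2 ratio was 0.11, whereas that of the other 28 members was -0.02, with 1 called higher (3.57%) and 3 lower (10.7%). Of protein-coding genes of any depth 12.2% were called higher and 14.7% lower. The median GC content was 43.98% in the first group and 49.6% in the second. After GC centring the medians were 0.01 and 0.02, with 3 higher and 0 lower among the 11 genes and 2 higher and 2 lower among the 28, against 11.6% and 9.45% of protein-coding genes of any depth, a share not matched to the depth of the 11 genes. Of the 3 higher genes, ERLEC1 and EDEM1 were listed by the study. The study listed SEL1L, EDEM1, EDEM3, ERLEC1 and FBXO6 as raised on these libraries. Without the 5 listed genes, 2 members were called higher (5.88%) and 4 lower (11.8%), against 12.2% and 14.7% of protein-coding genes. The median of the remaining 34 was -0.00. Among the genes whose promoter windows are printed above, UBE2J1 and VCP carry the same UPRE letters, and their log2 ratios were 0.24 and -0.15 as deposited and 0.12 and -0.08 after centring, where UBE2J1 was no longer called. HERPUD1, with ERSE-II, stood at 0.05.

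Paralogous members and the SEL1L and SYVN1 partners were compared in 12 pairs, as the difference of their log2 ratios with a 95% Wald interval of counting error and no adjustment over the pairs. In 5 pairs the interval excluded 0. The FPKM of SEL1L was 1.84 times that of SYVN1 in shControl and 2.33 times in shFKBP9, a difference of log2 ratios of 0.34 (0.20 to 0.47). UBE2J1 stood at 1.02 times UBE2J2 in shControl and at 1.24 times in shFKBP9 (0.28, 0.12 to 0.44). EDEM1 against EDEM2 gave 0.23 (0.08 to 0.38), EDEM3 against EDEM2 0.19 (0.00 to 0.39) and ERLEC1 against OS9 0.19 (0.05 to 0.33). In each of these 5 pairs the gene with the higher ratio had the lower GC content, for example 39.3% in SEL1L and 58.5% in SYVN1. With the GC bin medians subtracted, the interval included 0 in all 12 pairs, and the difference was 0.10 (-0.03 to 0.24) for SEL1L and SYVN1 and 0.05 (-0.11 to 0.20) for UBE2J1 and UBE2J2. In the other 7 pairs the interval included 0 before centring as well. The differences were -0.09 (-0.25 to 0.06) for DERL1 and DERL2, -0.01 (-0.16 to 0.13) for MAN1A1 and MAN1A2, 0.04 (-0.17 to 0.24) for HERPUD1 and HERPUD2 and 0.04 (-0.08 to 0.17) for ERLIN1 and ERLIN2. They were 0.03 (-0.15 to 0.21) for EDEM1 and EDEM3 and -0.05 (-0.23 to 0.12) for RNF5 and RNF185. FBXO6 and FBXO2, with few fragments, differed by 0.37 with the widest interval of the 12 pairs (-0.54 to 1.29).

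A list of 45 other genes of the same pathway gave a similar picture. All had at least 10 fragments, 0 passed 2-fold and the median log2 ratio was 0.02. The test called 5 higher and 5 lower (11.1% each), against 12.2% and 14.7% of protein-coding genes. DNAJB9 (ERdj4), an ER co-chaperone induced by XBP1, had 3.52 FPKM in shControl and 4.85 FPKM in shFKBP9 (0.45, 0.17 to 0.75), and 0.32 (0.05 to 0.62, adjusted p = 0.0869 in the exact test) after centring at a GC content of 37.3%. UGGT2, which reglucosylates misfolded glycoproteins and was listed by the study, stood at 0.29 (0.16 to 0.44), and the ligase RNF170 at 0.29 (0.10 to 0.49). Neither was called after centring, at 0.16 (0.03 to 0.31) for UGGT2 and 0.16 (-0.03 to 0.36) for RNF170. The largest decreases were those of FBXO27, from 7.70 to 4.89 FPKM (-0.64, -0.89 to -0.42), and FBXO17, from 11.9 to 9.31 FPKM (-0.36, -0.49 to -0.23), both F-box proteins of the family of FBXO2 and FBXO6. They were called lower also after centring, at -0.56 and -0.26. SDF2L1, an ER chaperone cofactor induced by the UPR, was lower at -0.24 (-0.39 to -0.10), and at -0.11 (-0.26 to 0.04) after centring at a GC content of 65.1%. With GC centring 7 of the 45 genes were called higher and 5 lower, against 11.6% and 9.45% of protein-coding genes.

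Reads of overlapping or near-identical genes can be counted for the wrong gene. Exons of other genes cover more than 20% of the exonic bases in 7 of the 40 members (DERL3, FBXO6, GET4, OS9, STUB1, TRIM13 and UBXN6) and none of them in 16. The pseudogene RNF5P1 held 3 fragments in shControl and 1 in shFKBP9, and RNF5 summed with it stayed at -0.12. The pseudogenes of ERLEC1, FAF2 and MAN1A2 had 0 fragments in both libraries.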

How the data were processed

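RNA-Seq of SF-539 cells with a control or an FKBP9 shRNA was analysed, with 1 library per condition, grouped by the treatment given in the labels. Paired-end reads had been cleaned, aligned to hg38 with HISAT2 2.0.5 and counted per gene with featureCounts 1.5.0-p3, and the authors deposited the values as FPKM. The annotation release was not given in the sources used here. The table held 0 further columns of values per library.

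FPKM multiplied by gene length gave whole multiples of 1 step (within 0.01) for 100% of values, from which fragments were recovered. Depth was 18116873 and 17158514 fragments, and 1 fragment on 1 kilobase is 0.0552 FPKM in shControl and 0.0582 FPKM in shFKBP9. Log2 ratios used FPKM + 0.1. Exact Clopper-Pearson intervals (95%) and the exact binomial test (Benjamini-Hochberg, 17105 genes with at least 10 fragments) cover counting error only, and fragments from PCR are not independent molecules. GC content, exons and exon overlap came from GENCODE release 44, matched by gene ID. GC bins were 20 bins of equal size over 13011 protein-coding genes. Promoter sequences were those of RefSeq.

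The members and lists were chosen with earlier results of these data known. Every member is named, with the 3 largest ratios in each direction among the other pathway genes called. Alternatives were 1 or 0.01 added to FPKM, median ratio scaling, TPM, other minimum counts, an assumed coefficient of variation of 10%, members without those the study listed, RNF5 with its pseudogene and, added after the data were seen, GC centring. The test and interval were tested on simulated data. Computation used Python 3.11.15 with scipy 1.17.1, numpy 2.4.6 and pandas 2.3.3, and plots were drawn with matplotlib 3.10.9.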

Additional observations from a re-analysis of the deposited data

How the results depend on the processing

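The count of 0 members past 2-fold was the same with 1 or 0.01 added to FPKM, with median ratio scaling, with TPM, and with either other minimum. The number of protein-coding genes past 2-fold, 117 as reported, was 14 with 1 added, 336 with 0.01 added, 267 with TPM (to which 0.1 was added on the TPM scale), 248 without a minimum and 6 with at least 500 fragments. The median log2 ratio of the members was lowest with TPM (-0.007) and highest with median ratio scaling (0.028). Medians of the 3 role groups ran from -0.025 (ligases, conjugating enzymes and adaptors, at least 500 fragments) to 0.043 (mannose trimming and lectins, median ratio scaling). Median ratio scaling raised all log2 ratios by 0.02. With it DERL2 was called higher (0.16) and NPLOC4 was no longer called (-0.08). GC centring instead put DERL2 at 0.01. With 500 fragments as the minimum of the test, 6 members were called higher and 4 lower, and 1534 and 1875 protein-coding genes.

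With an assumed coefficient of variation of 10%, the 5 higher and 4 lower members became 0 and 0, the other pathway genes 0 and 1, and protein-coding genes 327 higher and 347 lower. Without the 5 members that the study listed, 2 members were higher (5.88%), against 12.2% of protein-coding genes. With the GC bin median as the expected ratio, 2 members and 1230 protein-coding genes were lower. SEL1L, SYVN1, UBE2J1 and NPLOC4 were no longer called, and OS9 and UBXN6 were called. Among the members called as deposited SEL1L alone changed its sign (-0.015). Several members that were not called changed sign as well, for example EDEM3 (0.11 to -0.01) and STUB1 (-0.03 to 0.09). No paired analysis was possible because each condition had 1 library. With 1 library per condition, leaving out a library was not possible either. Depth limits the values of FBXO2, FBXO6, GET4, TRIM13 and DERL3 most.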

Other observations

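The calnexin cycle, which retains glycoproteins for folding before ERAD takes them, is among the other genes of the pathway. The genes in this paragraph were chosen after their values were seen. CALR, the soluble lectin of the cycle, had 757 FPKM in shControl and 756 FPKM in shFKBP9 (log2 ratio -0.00, 95% interval -0.02 to 0.02), and CANX, its membrane-bound relative, had 138 and 140 FPKM (0.02, -0.01 to 0.05). With the GC bin medians subtracted these became 0.08 (0.06 to 0.11) for CALR, at a GC content of 53.8%, and -0.08 (-0.11 to -0.05) for CANX, at 39.9%, so that genes without a counting difference as deposited were called on opposite sides. DNAJB2, a cytosolic co-chaperone that the study listed as raised, was higher in both settings, at 0.25 (0.16 to 0.34) and 0.37 (0.28 to 0.47), although its GC content of 61.3% lies in a bin whose median was -0.12. Whether the relation with GC content came from library preparation, sequencing or the cells was not tested.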
